A study of Mus musculus with 4 samples.

Results

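Among splenic CD4 T cells stimulated for 6 h, 116 cells carried Nrn1 together with Gpm6b, Scg2 or Penk, and they are described here as the selected cells. They were chosen by raw UMI counts, a UMI (unique molecular identifier) being 1 captured RNA molecule. A kept cell had at least 2000 UMIs, at least 500 detected genes, at most 10% mitochondrial UMIs and at least 1 UMI of Cd3e, Cd3d and Cd3g together. A selected cell had in addition at least 1 UMI of Nrn1, at least 1 UMI of Gpm6b, Scg2 and Penk together, and 0 UMIs of Foxp3 and of Zbtb16. The rule took 116 of 17969 kept cells, which is 0.646%. The working name of these cells was anergy-like, but only some of the inhibitory and anergy genes were higher in them and Il2 was not lower, so they are called by their rule.

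T cells were sorted from mouse spleen for CD3 and CD4 and cultured for 6 h with anti-CD3/anti-CD28 beads, which mimic antigen and costimulation, and every library received this stimulation. Droplet 3′ single-cell RNA sequencing gave 4 libraries, 1 of each sex for the label Irf5-/- (here labelled knockout) and 1 of each sex for the label WT (labelled wild type). Values of all libraries are listed in the order knockout female, wild-type female, knockout male, wild-type male. Irf5 encodes a transcription factor of innate immune signalling, and the allele is described in the labels only as Irf5-/-. The labels give neither the strain, the age, the number of mice in a library nor whether libraries came from separate animals, so p-values speak only of these 4 libraries. In the class comparisons, edgeR took a common spread per gene from the sums of all classes, not from selected cells alone.

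Anergy is a state in which a CD4 T cell that has met its antigen without full costimulation, or over a long time, answers a further stimulus weakly and makes little interleukin 2. Nrn1 encodes neuritin, a small membrane-anchored protein first studied in neurons and since described in anergic and regulatory CD4 T cells. Gpm6b encodes a tetraspan membrane proteolipid of neural cells, Scg2 encodes secretogranin II, a precursor stored in secretory granules, and Penk encodes the precursor of the enkephalin opioid peptides.

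The rule joined genes that lie on separate chromosomes of the GRCm38 assembly: Nrn1 on the minus strand at chr13:36725361-36735131, Gpm6b on the plus strand at chrX:166238911-166388988, Scg2 on the minus strand at chr1:79434669-79440120 and Penk on the minus strand at chr4:4133531-4138819. All 4 are protein-coding. The promoters of Gpm6b and Scg2 are shown because both held a cyclic AMP response element, the palindrome TGACGTCA, which is the binding site of the CREB and ATF family. Each sequence is the 250 bases before the RefSeq start on GRCm38.p6, read 5′ to 3′ on the gene's strand, chrX:166238693-166238942 for Gpm6b and chr1:79440027-79440276 for Scg2, with the element in capitals.
Gpm6b: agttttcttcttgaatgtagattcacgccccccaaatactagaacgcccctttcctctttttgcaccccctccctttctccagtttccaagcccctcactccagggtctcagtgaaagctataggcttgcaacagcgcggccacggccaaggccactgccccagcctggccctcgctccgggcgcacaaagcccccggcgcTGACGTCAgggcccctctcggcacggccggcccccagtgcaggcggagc
Scg2: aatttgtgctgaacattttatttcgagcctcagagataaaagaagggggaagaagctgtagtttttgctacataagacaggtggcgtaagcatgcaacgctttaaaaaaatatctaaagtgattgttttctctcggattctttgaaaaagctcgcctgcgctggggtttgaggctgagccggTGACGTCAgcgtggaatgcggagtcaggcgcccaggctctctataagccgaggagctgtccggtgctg
The first base of the element lay 49 bases before the start in Gpm6b and 68 bases before it in Scg2. The element, searched on both strands, was present in 508 of 32851 promoters of this length (1.55%). Among 6 marker genes, the 4 rule genes above with Plscr1 and Ptpn5, 4 had a promoter in the table and 2 of their 5 promoters held the element. Other motifs were searched in the same way: NFAT (TGGAAA, in 18.6% of all promoters) was found in Gpm6b and Plscr1, and AP-1 (TGANTCA, 6.75%) and EGR (GCGNGGGCG, 4.70%) were found in no marker's promoter. The motifs were chosen with the sequences in view, and a match is a description of letters.

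Selected cells came from every library, 33, 10, 51 and 22 in the order above. Kept cells numbered 1702 to 6204 a library, and total UMIs 28841161 to 55850754. The female library labelled wild type stood apart, with the fewest kept cells and 36.2% of its UMIs in droplets under 200 UMIs, against 8.62% to 14.7% in the others. Libraries shared 2 to 13 kept barcodes a pair and 0 or 1 barcode of selected cells. The median depth of selected cells was 5239 to 10225.5 UMIs by library, and that of the other cells 5196 to 9782. The 12 sums behind the tests held 98737 to 472567 UMIs for selected cells, so that genes below about 20 CPM (UMI counts scaled to a common library total) rest on a few UMIs in them.

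Gpm6b was the commonest companion of Nrn1. It was detected in 94 of the 116 selected cells, Scg2 in 22 and Penk in 22. Gpm6b was the sole companion in 74 cells, Scg2 in 11 and Penk in 10, and 21 cells held more than 1 of them. Nrn1 ran from 1 to 31 UMIs a cell, with library medians of 3, 3, 4 and 2 UMIs. Gpm6b reached 13 UMIs a cell, Scg2 24 and Penk 145, so a few cells held much of the Scg2 and Penk. These genes chose the cells, and their levels carry no test. Over all kept cells, a UMI of Nrn1 was found in 2.90% to 5.41% by library, of Gpm6b in 1.12% to 2.26%, of Scg2 in 0.267% to 0.470% and of Penk in 0.293% to 0.889%. As a check on free RNA, Nrn1 was found in 0 of 67 B and erythroid droplets without CD3 (median 12233 UMIs), which allows a share of up to 4.48%. The Nrn1 share of kept cells lay above this limit in 2 of 4 libraries. Scg2 was also found in 0, and Gpm6b and Penk in 1 each (1.49%, exact 95% interval 0.0378 to 8.04). The shares of Gpm6b, Scg2 and Penk over all kept cells thus lay within what these droplets allow. In droplets under 200 UMIs Nrn1 stood at 13.1 to 24.5 CPM of their UMIs, against 15.6 to 19.0 in kept cells, and Penk at 2.93 to 26.3 against 1.89 to 11.3. Scg2 stood at 0.391 to 3.93 against 1.11 to 4.04, and Gpm6b at 3.07 to 6.96 against 1.99 to 7.59. The part of free RNA in the selection was not tested.

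Plscr1 and Ptpn5, the remaining markers, were picked with these data in view and are given as a description. Plscr1 encodes a phospholipid scramblase that is induced by interferon, and stood at 317, 137, 229 and 307 CPM in selected cells. In Foxp3+ cells it stood at 20.5 to 53.6 CPM and in the other cells at 14.3 to 26.4 CPM. Ptpn5 encodes STEP, a tyrosine phosphatase best known from neurons, and stood at 79.3, 36.6, 118 and 72.2 CPM in selected cells, at 18.5, 3.41, 18.4 and 12.6 in Foxp3+ cells and at 0.744 to 1.46 CPM in the other cells. Selected cells held 19.5%, 26.7%, 36.1% and 24.2% of the Ptpn5 UMIs and the more numerous Foxp3+ cells 33.3%, 6.67%, 27.2% and 25.8%. Plscr1 was detected in 71 selected cells, Ptpn5 in 31, both in 21 and neither in 35, so these markers did not reach every cell of the rule. Plscr1 was also found in 41 of the 67 B and erythroid droplets (61.2%, exact 95% interval 48.5 to 72.9), at a greater depth than selected cells, and Ptpn5 in 2 of them. After thinning to 2000 UMIs, 34.7% of selected cells and 22.4% of the droplets (13.1 to 34.2) had a Plscr1 UMI.

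**Figure D1:**
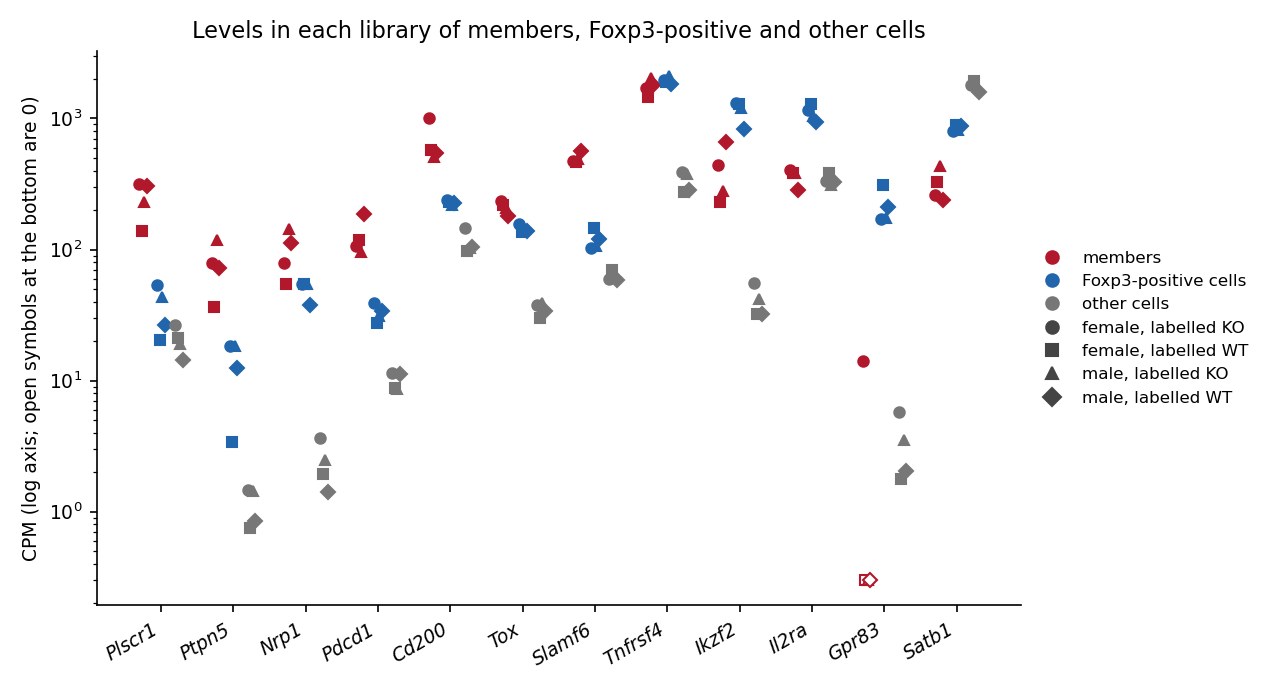
Level of 12 genes (CPM, log axis) in each of the 4 libraries, for selected cells, Foxp3+ cells and other cells; each point is 1 library. Plscr1 in selected cells lay between 137 and 317 CPM, above all 8 values of the remaining classes.

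Cells on either side of the thresholds differed in more than the rule genes, as a description without a test. The 531 cells with Nrn1 but none of Gpm6b, Scg2 and Penk held Plscr1 at 38.7 and Pdcd1 at 17.3 CPM of their pooled UMIs. The 301 cells with 1 of the companions but no Nrn1 held 105 and 53.9. The 16232 cells with neither held 15.3 and 8.12, and the selected cells 262 and 123. Selected cells with a single Nrn1 UMI, just inside the threshold, numbered 33 and held Plscr1 at 261 CPM, next to 262 in the 83 cells with more. The 40 cells with a single UMI of the companions held 193. Il2 stood at 211 CPM in the cells with Nrn1 alone, 319 in those with a companion alone, 96.3 in those with neither and 465 in selected cells, and Ifng at 6.26, 23.9, 6.94 and 17.97 CPM. Selected cells with a single companion UMI held Il2 at 135 and Ifng at 0 CPM, against 580 and 24.2 in those with more. Of the 466 Il2 UMIs in selected cells, 202 lay in 2 cells, both with more than a single companion UMI.

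Most defining markers of other cell types were at 0 in selected cells. All 9 CD4 T cell genes of a list were detected, 6 of them higher and 1 (Trac, by -0.46) lower than in other cells. Over all genes tested 13.8% were higher and 13.4% lower. Cd4 itself was higher in selected than in other cells by 1.75 on the log2 scale (SE 0.14, edgeR quasi-likelihood test with Benjamini-Hochberg adjustment over all genes, adjusted p = 4.49e-10). Of 11 B cell genes 7 had 0 UMIs, Cd79a and Ms4a1 among them, and all 11 together had 11 UMIs. Of 7 natural killer genes 6 had 0 UMIs and Nkg7 had 15, and of 5 gamma-delta T cell genes 4 had 0 and Trdc had 1. Of 2 CD8 T cell genes Cd8a had 0 UMIs and Cd8b1 had 10 in 7 cells, and Cd8b1 did not differ from other cells (0.026). Of 15 neural and glial genes 13 had 0 UMIs, Sox10 and Gfap among them, with Mbp at 172, a gene whose levels also stood at 152 to 195 CPM in other cells. Of 12 myeloid genes 9 had 0, Lyz2 and Csf1r among them; the summed level of the list was 111 to 274 CPM in selected and 91.6 to 131 CPM in other cells, Cst3 was higher by 1.08, and 44 of 45 UMIs of Xcr1 lay in 3 cells of the male library labelled knockout. Without it the Cst3 difference was 0.29 (edgeR adjusted p = 0.521). Of 9 erythroid genes 7 had 0 UMIs, and Car2, with 45, was higher by 2.60 (edgeR adjusted p = 8.81e-04; without the male knockout-labelled library 1.87, adjusted p = 0.113). Of 7 stromal genes 6 had 0 and Pecam1 had 46. The part of these cell types in the results was not tested.

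The first comparison set selected cells against the 17064 other cells, which are the kept cells that are neither selected nor Foxp3+. Of 8232 genes tested, 2241 (27.2%) differed, 1137 higher (13.8%) and 1104 lower (13.4%) in selected cells, and the median log2 difference over all genes was -0.01. In selected cells, many coinhibitory and memory genes were higher, and many naive, activation, interferon and growth genes were lower. Foxp3+ cells, compared below, shared much of this against other cells, but not the lower interferon genes. In them 14 memory genes were higher and 3 lower, and 12 anergy and inhibitory genes were higher and 10 lower. Lower were 9 naive, 15 receptor-induced and 12 growth genes, and higher 3, 7 and 0. Of interferon genes 12 were higher and 4 lower, where 19.6% of all genes were higher and 17% lower. The list counts for selected cells that follow are to be read against 13.8% higher and 13.4% lower. The count fell to 1399 without the male library labelled knockout, which holds 51 of the 116 cells. Thinned to 2000 UMIs a cell, the count was 814, and against other cells matched in depth it was 1306.

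Of 35 anergy and inhibitory genes, 30 were tested, 13 were higher and 7 lower in selected cells, with a median of 0.30 on the log2 scale. The higher side held surface receptors that restrain T cells, among other genes. Pdcd1, which encodes PD-1, stood at 107, 119, 95.1 and 185 CPM in selected cells and at 11.5, 8.7, 8.67 and 11.3 in other cells. All 4 selected values lay above all 4 others, and the difference was 3.61 (SE 0.20, edgeR adjusted p = 3.57e-13). Cd200, the ligand of an inhibitory myeloid receptor, stood at 1012, 577, 504 and 542 against 145, 98, 103 and 105 CPM, a difference of 2.51 (SE 0.11, edgeR adjusted p = 8.03e-15). Nrp1, the semaphorin receptor neuropilin 1, differed most in the list, at 79.3, 55, 143 and 113 against 3.67, 1.93, 2.46 and 1.42 CPM (5.50, SE 0.29, edgeR adjusted p = 1.29e-13). Tox, a transcription factor of exhausted and follicular T cells, was higher by 2.52, Lag3, an inhibitory receptor for MHC class II, by 2.30, and Izumo1r, folate receptor 4, by 1.99, each past the threshold. Nt5e, which encodes the ectonucleotidase CD73, Ctla4, Btla, Cd5, Bhlhe40 and Nfatc2 were also higher.

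The lower side held genes that anergy is also known for. Nr4a1, the orphan nuclear receptor Nur77, which T cell receptor signals induce, stood at 131, 275, 424 and 171 CPM in selected cells against 569, 708, 592 and 605 in other cells, without overlap (-1.16, SE 0.17, edgeR adjusted p = 1.07e-05). Nr4a3 was lower by 1.31 and Cblb, an E3 ubiquitin ligase that holds back T cell activation, by 0.79, together with Ndrg1, Socs1, Ikzf1 and Sh2d2a. Egr2 and Egr3, transcription factors of the anergy program, did not pass the test at -0.20 (edgeR adjusted p = 0.587) and -0.69 (edgeR adjusted p = 0.164). For Egr3 a single cell held 43.4% of the UMIs in selected cells. Against depth-matched cells they stood at 0.47 and 0.020. Egr3 was called lower in 5 of 15 alternatives, among them without marked doublets (-1.23, edgeR adjusted p = 0.0242) and without the male library labelled knockout (-1.60, edgeR adjusted p = 0.0451). The inhibitory receptors and Nr4a1, Nr4a3 and Cblb differed in opposite directions.

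Follicular helper genes overlapped the inhibitory list. Of 16 such genes 10 were tested, 7 were higher and 1 (Il6st) lower. Slamf6, a homophilic receptor of the SLAM family, stood at 471, 467, 492 and 564 CPM against 59.8, 69.5, 65.4 and 58.5, a difference of 3.0 (SE 0.11, edgeR adjusted p = 7.12e-17). Maf, Icos, Batf, Sh2d1a, Pdcd1 and Cd200 were the others. Bcl6, the factor that defines follicular helper cells, did not pass the test (-0.62, edgeR adjusted p = 0.175) but was called lower in 3 of 15 alternatives, such as without marked doublets (-1.01, edgeR adjusted p = 0.0457), and Cxcr5 had 7 UMIs in 6 selected cells and was below the filter on low counts.

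Of 18 naive T cell genes 17 were tested, and 9 were lower and 0 higher. Satb1, a chromatin organizer of naive and developing T cells, stood at 261, 330, 430 and 239 CPM in selected cells against 1796, 1931, 1821 and 1599 in other cells (-2.43, SE 0.11, edgeR adjusted p = 8.03e-15). Lef1 was lower by 1.93, the lymph node homing receptor Ccr7 by 1.70, and Bach2 by 1.67, a repressor of effector programs. Tcf7, a transcription factor of naive and memory cells, did not pass the test at -0.35. It was called lower in 4 of 15 alternatives, down to -0.81 after thinning (edgeR adjusted p = 0.0497), and turned to 0.37 against responding other cells, those with at least 3 UMIs of Nr4a1, Egr2 and Egr3 together.

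Memory and effector genes were mostly higher, 12 of 18 tested of 25, with 2 lower and a median of 1.91. Cxcr3, the receptor for interferon-induced chemokines, stood at 37.3, 36.6, 33.1 and 45.1 CPM against 2.17, 1.12, 2.04 and 1.73 (4.33, SE 0.41, edgeR adjusted p = 1.37e-08). Cd44 was higher by 1.92, the integrin chains Itga4 and Itgb1 by 1.77 and 2.37, Id2 by 1.90, and Gata3 and Rora, transcription factors of type 2 and type 17 helper cells, by 1.83 and 1.94. Ccl5 and Il12rb2 were the lower members, with 3 UMIs each in selected cells. Those of Ccl5 lay in 1 cell.

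T cell receptor induced genes split, with 7 higher and 14 lower of 31 tested of 33, and the higher count was 3 without the male library labelled knockout and 4 after thinning. Cd69, an early activation antigen, stood at 410, 623, 682 and 627 CPM against 1389, 1571, 1496 and 1635 (-1.36, SE 0.09, edgeR adjusted p = 2.71e-11). Myc, which drives growth after activation, stood at 79.3, 110, 120 and 90.3 against 331, 389, 283 and 335 CPM (-1.62, SE 0.15, edgeR adjusted p = 5.02e-09). For both genes, and for Nr4a1 above, every selected value lay below every other value, and how many of all genes did so was not counted. Gadd45b, Dusp2, Dusp5, Irf4, Irf8, Fos and Jun were also lower, and Junb, Dusp6, Rilpl2, Mir155hg, Cd83, Tnfrsf9 and Nfkbia were higher. Of 15 amino acid and growth genes, all tested, 10 were lower, although the summed level in the female library labelled wild type was 14036 CPM in selected and 13996 in other cells. Among the lower genes were Npm1, lower by 0.80, and Ncl, lower by 0.92, nucleolar proteins of ribosome making, and Srm, lower by 0.96. Odc1, the rate-limiting enzyme of polyamine synthesis, was the 1 higher gene (1.09, SE 0.09, edgeR adjusted p = 1.14e-09).

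Interferon response genes were lower in 10 and higher in 2 of 21 tested of 25. Their summed level was lower in selected than in other cells in 3 of 4 libraries (1508, 2584 and 1594 against 4188, 4001 and 2959 CPM) but not in the female library labelled knockout (4741 against 4429). Gbp2, a guanylate-binding protein of cell-autonomous defence, stood at 201, 101, 138 and 67.7 CPM in selected cells against 893, 951, 793 and 654 in other cells (-2.62, SE 0.19, edgeR adjusted p = 1.09e-10). Igtp was lower by 2.25 and Gbp4 by 2.14, both GTPases of the same defence. The 2 higher genes were Ifi27l2a (1.39) and Slfn5 (0.92), and the Slfn5 call was lost without the female library labelled knockout (0.59, edgeR adjusted p = 0.158) and after thinning. Plscr1, which is itself interferon-induced, stood high in the same cells.

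**Figure D2:**
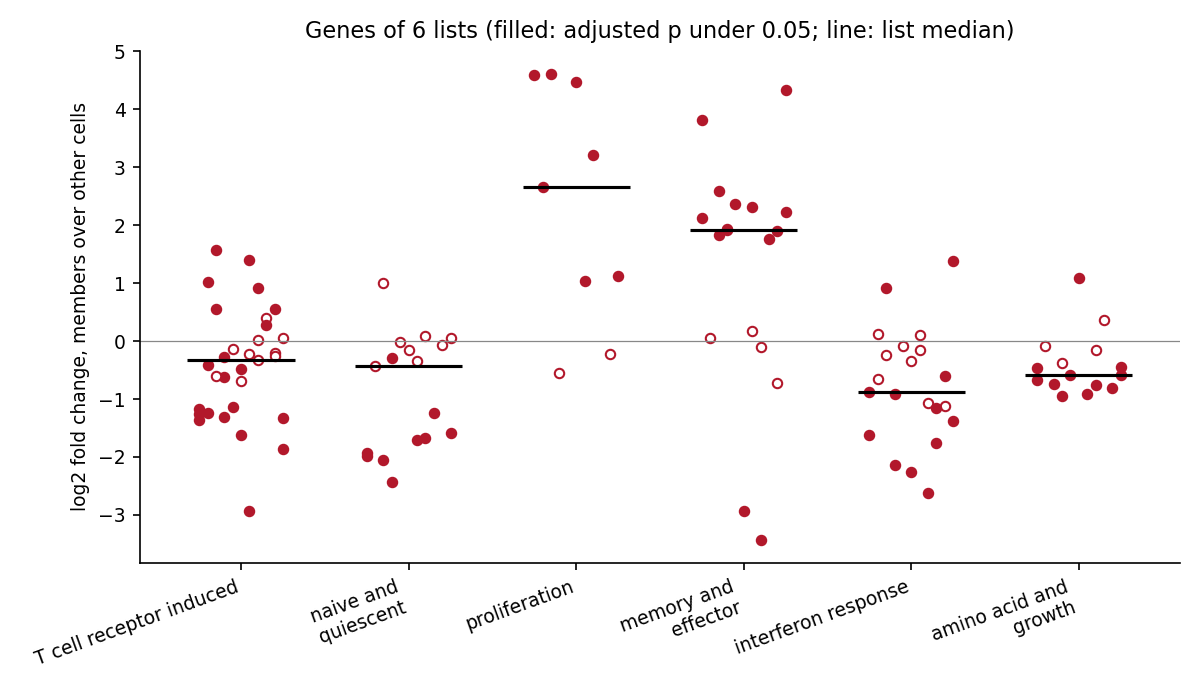
Log2 difference of selected over other cells for each tested gene of 6 lists; each point is 1 gene, filled where it passed the adjusted threshold, and the line marks the list's median. The medians were 1.91 for memory and effector genes and 2.67 for proliferation genes, and -0.88 for interferon, -0.59 for growth, -0.43 for naive and -0.33 for receptor-induced genes.

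Across all genes, the 20 genes with the largest rises by a fixed rule were a mixed group, 18 of them beside Nrp1 and Ptpn5 given above. The rule took called genes with a mean of at least 20 CPM in 1 class and the same direction in all 4 libraries. It left out the rule genes of the selection, antigen receptor variable segments, mitochondrial and ribosomal protein genes, and symbols of the Gm-number or Rik form. Secreted proteins were among them: Igfbp7, an insulin-like growth factor binding protein (7.11, SE 0.71, edgeR adjusted p = 2.3e-08), Ccn4, a matricellular protein (5.28), and Stc2, stanniocalcin 2 (4.66). Igfbp7 stood at 74.6, 9.16, 14.5 and 13.5 CPM against at most 0.427 in other cells, and rested on 27 UMIs in 17 cells. Transcription factors were Tshz2 (6.49) and Runx2 (4.79), and Runx2 was even across libraries, at 46.6, 45.8, 64.1 and 63.2 CPM against 1.34 to 2.48 in other cells. Ccr6, the receptor for CCL20, differed by 5.19, and Cyfip1, a subunit of the actin-regulating WAVE complex, by 4.54 with 162 UMIs in 60 cells. The others included Agr3 (5.82), Dusp14 (5.49), C2cd4b (5.34), Zdhhc2 (5.24), Fam43a (5.06), Slc22a15 (5.06), Cybb (4.70), Unc13b (4.54), Top2a (4.47) and Ptpn13 (4.46). All 4 selected values lay above all 4 of the other cells for 983 of the 8232 genes (11.9%).

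Of the 10 lower genes named by the same rule, 8 had 1 to 3 UMIs in all selected cells. For these the ratio of selected to other cells is given with its 95% counting interval. Ccr4, a chemokine receptor of type 2 helper and regulatory cells, had 1 UMI and a ratio of 0.0476 (0.00121 to 0.266). Vegfa had a ratio of 0.0698 (0.00845 to 0.252), Tnnt2 of 0.0992 (0.0205 to 0.290), Jaml of 0.100 (0.0121 to 0.362) and Atp1b1 of 0.100 (0.0206 to 0.292). Ccl5, an effector chemokine, had a ratio of 0.106 (0.0218 to 0.309) and Gng12, a G protein subunit, of 0.128 (0.0263 to 0.374). Igkc, an immunoglobulin chain, had a ratio of 0.0343 (0.00707 to 0.100), but its level in other cells was 392 CPM in the female library labelled knockout against 2.09 to 12 in the rest, and its call was lost in 7 of 14 alternatives, including without that library. Ly6c1 (-3.96) and Pde3b (-3.27) had 7 UMIs each.

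The second comparison asked whether selected cells resemble Foxp3+ cells, taken as the 789 kept cells with a Foxp3 UMI and none of Zbtb16 (260, 39, 336 and 154 by library). Selected cells carried the regulatory T cell genes in part. Of 31 regulatory T cell genes 24 were tested, and in selected cells 20 were higher and 1 lower than in other cells (median 1.92). In Foxp3+ cells 21 of the list were higher and 0 lower than in other cells (median 2.83), where 19.6% of all genes were higher and 17% lower. The comparisons share the other cells, so their values are set side by side only. Set directly against Foxp3+ cells, selected cells were lower for 14 of the list and higher for 4 (median -0.90). Over all 8232 genes, 1027 (12.5%) differed between selected and Foxp3+ cells, 513 (6.23%) higher and 514 (6.24%) lower, and 3012 (36.6%) differed between Foxp3+ and other cells. Without the male library labelled knockout, the counts were 532 and 1814.

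The summed level of the list lay between the other classes in every library: 5540, 3911, 5413 and 5122 CPM in selected cells, 9724, 9457, 9288 and 7456 in Foxp3+ cells, and 1746, 1472, 1616 and 1299 in other cells. Tnfrsf4, the costimulatory receptor OX40, was among the 6 genes that did not differ from Foxp3+ cells by the test. It was higher than in other cells by 2.42 (SE 0.08, edgeR adjusted p = 6.3e-17) and stood at -0.14 against Foxp3+ cells (SE 0.08, edgeR adjusted p = 0.31), and it was called lower against cells with at least 2 Foxp3 UMIs (-0.43, edgeR adjusted p = 0.00413). Ikzf2, which encodes the regulatory T cell factor Helios, was intermediate at 438, 229, 281 and 663 CPM, against 1320, 1279, 1211 and 829.9 in Foxp3+ cells and 32.3 to 55.4 in other cells. It was lower than in Foxp3+ cells by 1.51 (SE 0.19, edgeR adjusted p = 2.61e-06). In the male library labelled wild type a single selected cell held 66 Ikzf2 UMIs, and the next highest held 17. Il2ra, the high-affinity chain of the interleukin 2 receptor, stood with the other cells: 401, 385, 380 and 284 CPM against 312 to 383 in other cells (0.13, SE 0.10, edgeR adjusted p = 0.389) and 934 to 1283 in Foxp3+ cells (-1.57, SE 0.10, edgeR adjusted p = 1.73e-11). Against other cells Il2ra was called higher without cells of 20 or more Top2a UMIs (0.27, edgeR adjusted p = 0.0489) and lower against responding other cells (-0.27, edgeR adjusted p = 0.0291). Izumo1r was lower than in Foxp3+ cells by 1.47, Ctla4 by 0.53 and Tnfrsf18, the receptor GITR, by 0.89. The Ctla4 call was lost without either knockout-labelled library and without the female wild-type one. Nrp1, Lag3, Icos and Rgs16 were the 4 genes of the list above the Foxp3+ level, Nrp1 by 1.14 (SE 0.25, edgeR adjusted p = 0.00197), a call lost in 3 of 14 alternatives, among them without the male library labelled knockout (0.91, adjusted p = 0.156).

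Several genes typical of Foxp3+ cells were scarcely detected in selected cells. Swap70, a guanine nucleotide exchange factor, was lower than in either class, at 14, 18.3, 8.27 and 13.5 CPM against 225 to 266 in Foxp3+ cells and 32.6 to 53.1 in other cells. Lrrc32, which encodes the TGF-beta docking receptor GARP, was lower than in Foxp3+ cells by 4.54 (SE 0.48, edgeR adjusted p = 1.68e-07), with 11 UMIs in 3 cells of the female library labelled knockout. Gpr83, a G protein-coupled receptor, had 3 UMIs in 1 selected cell against 1055 UMIs and 36.9% of Foxp3+ cells, a ratio of 0.0154 (95% counting interval 0.00318 to 0.0453). Itih5 had 1 UMI (ratio 0.0128, 0.000324 to 0.0719) and Rragd 2 UMIs (ratio 0.0356, 0.00429 to 0.130). Genes with 0 UMIs in selected cells were at least 10.6-fold lower than in Foxp3+ cells for Kcnj15, 9.45-fold for Ppm1l, 6.63-fold for Sdc4 and 5.77-fold for Lamc1, taking a floor of 3 UMIs over all selected cells. Jun, a subunit of AP-1, had 5 UMIs in 3 selected cells and stood at 149 to 290 CPM in Foxp3+ cells.

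On the higher side against Foxp3+ cells, the named genes were Agr3 (5.53), Unc13b (5.51), which encodes a vesicle priming factor of secretion, Stc2 (4.22), Igfbp7 (4.10), C2cd4b (4.04), Il2 (3.79), Kif11 (3.77), a mitotic kinesin with 57 UMIs in 13 selected cells, and Nmrk1 (3.47). Pdcd1 was above the Foxp3+ level by 1.87 (edgeR adjusted p = 1.95e-07), Slamf6 by 2.14 and Cd200 by 1.51. Among Foxp3+ cells, 11 of 789 met both UMI thresholds of the rule (1.39%, exact 95% interval 0.698 to 2.48), next to 116 of 16945 cells without Foxp3 and Zbtb16 (0.685%, 0.566 to 0.821). The intervals cover counting error only, and the 11 cells were 2, 1, 7 and 1 by library, so most came from the male library labelled knockout. Against those 11 cells alone, which give small sums, 12 genes differed, and Il2 (1.53, edgeR adjusted p = 0.0700), Pdcd1 (1.15), Slamf6 (0.54), Cd200 (0.18), Kif11 (0.35) and Nrp1 (0.39) did not.

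**Figure D3:**
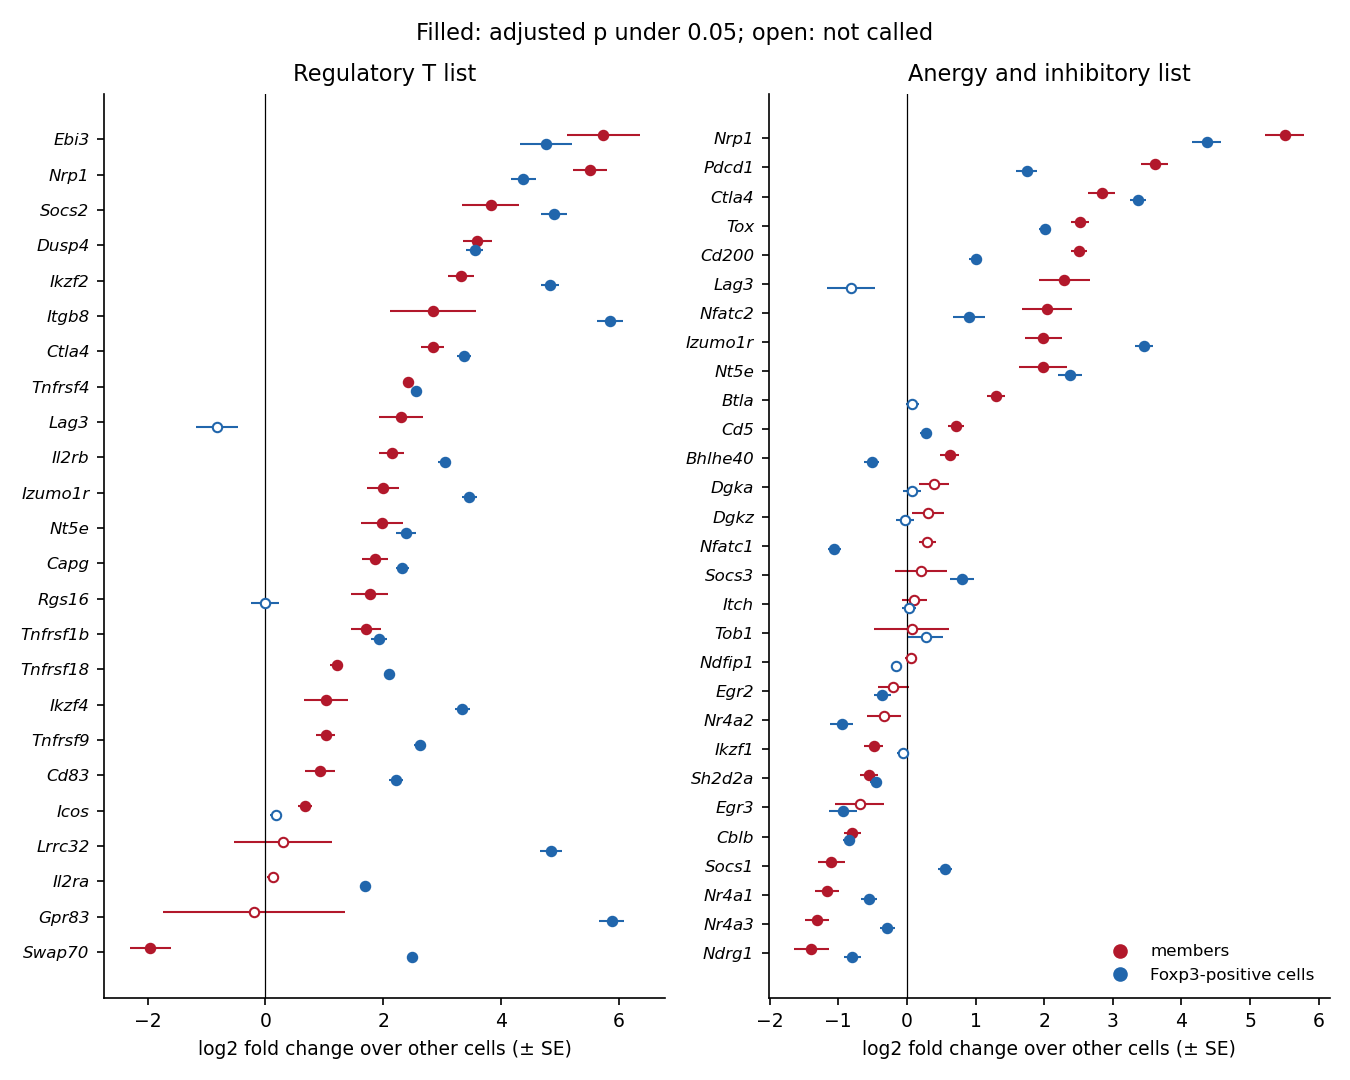
Log2 difference (± SE) from other cells of regulatory T cell and anergy genes that were tested, for selected cells and for Foxp3+ cells; filled symbols passed the adjusted threshold. Ikzf2 lay at 3.32 in selected and 4.83 in Foxp3+ cells, Il2ra at 0.13 and 1.70, and Pdcd1 at 3.61 and 1.74.

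The third question was whether selected cells hold the Il2 and Ifng UMIs. They held a minority of both, and for Il2 more than their share of RNA in 3 of 4 libraries. Il2, the T cell growth factor gene at chr3:37120523-37125959, had 87, 209, 151 and 19 UMIs in selected cells out of 3120, 1774, 4747 and 4794 in all kept cells. That is 2.79%, 11.8%, 3.18% and 0.396% of the Il2 UMIs, where selected cells had 0.657%, 0.658%, 1.05% and 0.480% of all UMIs. The library of wild-type label and male sex lay below its share. The mean excess was 3.83 ± 4.98 percentage points (SD, n = 4 libraries; exact sign-flip test, two-sided, p = 0.25, smallest possible 0.125). Foxp3+ cells held 0.897%, 0.282%, 2.00% and 1.17% of the Il2 UMIs.

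A single cell of the female library labelled wild type had 144 Il2 UMIs, 30.9% of all Il2 UMIs in selected cells, and a second cell of that library had 58. Without that library the mean excess was 1.39 percentage points. With each cell capped at 10 UMIs, selected cells held 2.16%, 3.49%, 4.65% and 0.795%, above their share of RNA in 4 of 4 libraries (excess 2.07 points, exact sign-flip p = 0.125, the smallest possible). As a level, Il2 stood at 406, 1915, 312 and 85.7 CPM in selected cells, 107, 116, 112 and 122 in other cells and 17.9, 17.1, 40.7 and 41.4 in Foxp3+ cells. It was higher than in other cells by 2.09 (SE 0.34, edgeR adjusted p = 3.91e-05) and than in Foxp3+ cells by 3.79 (SE 0.45, edgeR adjusted p = 1.05e-06), although the male library labelled wild type went the other way against the other cells. Without all cells of 50 or more Il2 UMIs the difference from other cells was 1.68 (edgeR adjusted p = 6.49e-06), and over all alternatives run it was 1.16 to 2.50 with adjusted p up to 0.0461.

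Il2 was concentrated in few selected cells. A UMI of it was found in 8 of 33, 4 of 10, 19 of 51 and 4 of 22 cells. After thinning to 2000 UMIs a cell, 12.1%, 30%, 25.5% and 4.55% of selected cells had a UMI, 18.04% ± 11.8 on average (SD, n = 4), against 5.05% of other and 2.60% of Foxp3+ cells. The difference from other cells was 12.98 percentage points, positive in 3 of 4 libraries (exact sign-flip p = 0.25, adjusted 0.288 over 30 genes tested so). Without thinning the shares were 29.9% and 10.1%, and 0 of 67 thinned B and erythroid droplets had a UMI. At least 10 Il2 UMIs were found in 13 of 116 selected cells (11.2%, exact 95% interval 6.10 to 18.4), 351 of 17064 other cells (2.06%) and 5 of 789 Foxp3+ cells (0.634%). Selected cells with Scg2 as the sole companion, 11 in number, held 229 of the 466 Il2 UMIs, of which 202 lay in the 2 cells with 144 and 58 and 27 in the other 9 cells. Over pooled UMIs, Il2 stood at 1036 CPM in all selected cells with Scg2, 250 in those with Gpm6b and 219 in those with Penk. Without those 2 cells the level with Scg2 was 226 CPM (exact 95% interval 166 to 299, counting error only), with Il2 in 10 of 20 such cells, next to 23 of 94 with Gpm6b and 8 of 22 with Penk. The 9 remaining cells with Scg2 alone stood at 324 CPM (214 to 472). These groups share cells and were not tested against each other.

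Ifng, which encodes interferon gamma, had 18 UMIs in 11 selected cells. They were 4.35%, 0.8%, 1.501% and 1.24% of the Ifng UMIs of their libraries, above the share of RNA in 4 of 4 libraries (mean excess 1.26 points, exact sign-flip p = 0.125, the smallest possible). The mean excess was 0.453 points without the female library labelled knockout, and the value of the female library labelled wild type was 1 UMI. After thinning the share was higher in 3 of 4 libraries (exact sign-flip p = 0.375). The level did not differ from other cells by the test (1.03, SE 0.50, edgeR adjusted p = 0.132). It was above that of Foxp3+ cells by 2.71 (SE 0.67, edgeR adjusted p = 0.00679), a call lost without the female library labelled knockout (adjusted p = 0.102) and without the male one (0.0618). After thinning, 3.90% of selected cells had an Ifng UMI against 0.472% of other cells (3 of 4 libraries higher, exact sign-flip p = 0.25), which are 3, 0, 1 and 1 cells. That difference of 3.43 points was 1.70 without the female library labelled knockout.

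**Figure D4:**
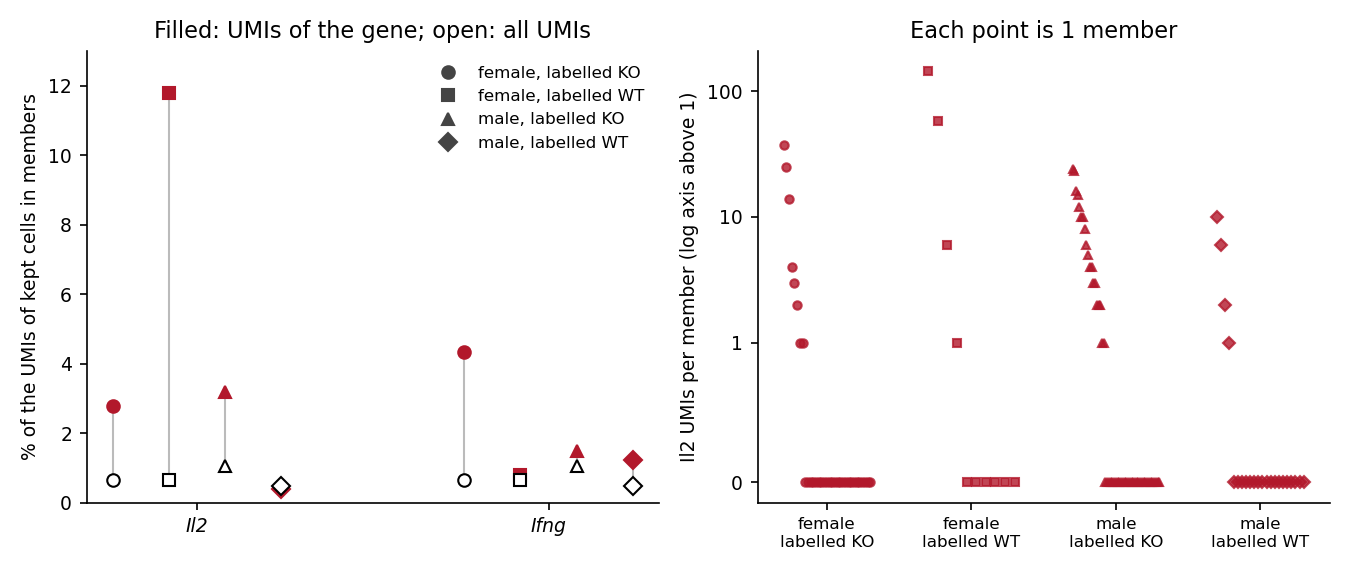
Left, the percentage of Il2 and of Ifng UMIs held by selected cells in each library beside their percentage of all UMIs; right, Il2 UMIs in each selected cell by library. The female library labelled wild type reached 11.8% of the Il2 UMIs, of which 1 cell with 144 UMIs held 8.12%.

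Of 32 cytokine and chemokine genes 15 were tested, with 3 higher (Il2, Tnfsf8, Cxcl10) and 3 lower (Tnf, Ccl4, Ccl5) than in other cells. Tnfsf8, the CD30 ligand, stood at 1278, 1237, 1798 and 1381 CPM against 319, 362, 308 and 295 (2.17, SE 0.13, edgeR adjusted p = 3.97e-12), without overlap. Tnf was lower by 0.83 and Ccl4 by 2.10; the Tnf call was lost without the male library labelled wild type (edgeR adjusted p = 0.116) and after thinning. The Ccl4 call was lost in 9 of 15 alternatives, among them without either female library (edgeR adjusted p = 0.0940 and 0.121). Cd40lg, the CD40 ligand, did not pass the test against other cells (0.56, edgeR adjusted p = 0.116) and was above Foxp3+ cells by 1.90, and Tnfsf11, which encodes RANKL, was above Foxp3+ cells by 1.80. Against Foxp3+ cells the Cd40lg call was lost in 2 of 14 alternatives and that of Tnfsf11 in 1 of 14. Against other cells Cd40lg gained a call in 1 of 15. The thinned share of cells with an Nr4a1 UMI went the other way, 18.5% of selected, 30.8% of Foxp3+ and 41.4% of other cells, lower than other cells in 4 of 4 libraries (exact sign-flip p = 0.125, the smallest possible). Without thinning the shares were 54.8%, 45.0% and 61.5%, still below other cells in 4 of 4 libraries but above Foxp3+ cells in 3 of 4.

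Few other neuropeptide genes reached the filter on low counts. Of a list of 25 genes of peptide precursors, their processing and opioid receptors, Penk and Scg2 left the tests as rule genes, and 4 of the others were tested, Cpd, Ctsl, Furin and Pam. Cpd, carboxypeptidase D, which trims peptides in the secretory pathway, was higher than in other cells by 2.84 (SE 0.51, edgeR adjusted p = 0.000116) on 22 UMIs in 15 cells. Pam, which amidates neuropeptides, did not pass (1.05, edgeR adjusted p = 0.226), and Ctsl, a lysosomal protease, had 0 UMIs in selected cells. Pcsk1, Pcsk2 and Cpe, the convertases and carboxypeptidase that mature most neuropeptides, and the granule proteins Chga and Chgb also had 0 UMIs. When the 22 selected cells with Penk were set against those without, 0 of 1851 tested genes (0%) differed by edgeR, 175 at an unadjusted p under 0.05, and 0 by DESeq2.

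Cycling genes were higher in selected cells, 7 of 9 tested of 12 with 0 lower, and this rested on 5 cells. Those with at least 20 UMIs of Top2a, the mitotic topoisomerase, numbered 2, 0, 2 and 1 by library and held 169 of the 187 Top2a UMIs and 125 of the 132 Mki67 UMIs. They were 4.31% of selected cells (exact 95% interval 1.41 to 9.77), against 12 of 17064 other cells (0.0703%, 0.0363 to 0.123) and 2 of 789 Foxp3+ cells (0.253%). Without all such cells 2 genes of the list were higher, and the Top2a difference was 2.15 (edgeR adjusted p = 0.00247) in place of 4.47. The list had 1 higher gene without the male library labelled knockout and 1 after thinning.

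The last comparison took the genotype labels. Irf5 itself went against them: in selected cells it stood at 14 and 8.27 CPM in the libraries labelled knockout (7 UMIs in all) and at 0 in both labelled wild type, and in other cells at 8.76 and 8.99 against 0.967 and 1.06. Whether the counted 3′ end lies within the altered part of the gene is not given in the sources used here, so the directions below are those of the labels. Selected cells were 0.587%, 0.588%, 0.822% and 0.495% of kept cells, with exact 95% intervals, which cover counting error only, of 0.404 to 0.823, 0.282 to 1.08, 0.613 to 1.08 and 0.311 to 0.749. The mean was 0.705% ± 0.166 for the knockout label and 0.541% ± 0.0652 for the wild-type label (n = 2 each, ± SD), and the difference of 0.163 percentage points was within the spread (exact permutation test, two-sided, p = 0.667, smallest possible 0.333). With every cell thinned to 2000 UMIs before the rule was applied, the shares were 0.320%, 0.294%, 0.355% and 0.135%, and with Nrn1 of at least 2 UMIs 0.445%, 0.411%, 0.629% and 0.270%. In both, each knockout-labelled share lay above each wild-type-labelled one, with the smallest p the exact permutation test allows.

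Within selected cells, 2 of 3418 genes (0.0585%) differed between the labels by edgeR, with 104 at an unadjusted p under 0.05, and 0 by DESeq2. Iigp1, an interferon-induced GTPase, stood at 280 and 167 CPM under the knockout label and at 45.8 and 22.6 under the wild-type label (2.70, SE 0.47, edgeR adjusted p = 0.0291), with 151 UMIs in 32 cells. The Iigp1 call was lost without marked doublets (2.41, edgeR adjusted p = 0.161), after thinning and by DESeq2. Over all alternatives the difference was 2.18 to 3.51. Fits without a library leave 1 library under a label and have no sex term, so their calls are not read. In other cells Iigp1 stood at 493 and 461 against 451 and 306 CPM (0.36, edgeR adjusted p = 0.217), where 68 of 12358 genes (0.55%) differed between the labels. Sp110, a nuclear body protein, had the reverse order, 0 and 2.07 CPM against 82.4 and 90.3 (-5.58, SE 0.97, edgeR adjusted p = 0.0291), and the other cells shared it, at 0.32 and 0.47 against 109 and 93.8 CPM. Without the female library labelled wild type the Sp110 difference was -5.65. The label effect differed between selected and other cells for 2 of 10055 genes (0.0199%; 376 at an unadjusted p under 0.05, 0 by DESeq2), Iigp1 (2.39, edgeR adjusted p = 1.01e-04) and Car2 (4.92, edgeR adjusted p = 0.0207). Car2, a carbonic anhydrase of erythroid cells, had 15, 0, 29 and 1 UMIs in selected cells, 17 of them in 1 cell of the male library labelled knockout. Over all alternatives the Car2 interaction ran from 3.49 to 14.2 and that of Iigp1 from 2.09 to 2.71. Neither call was kept throughout when a library was left out, but those fits leave 1 library under a label and are not read for calls.

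**Figure D5:**
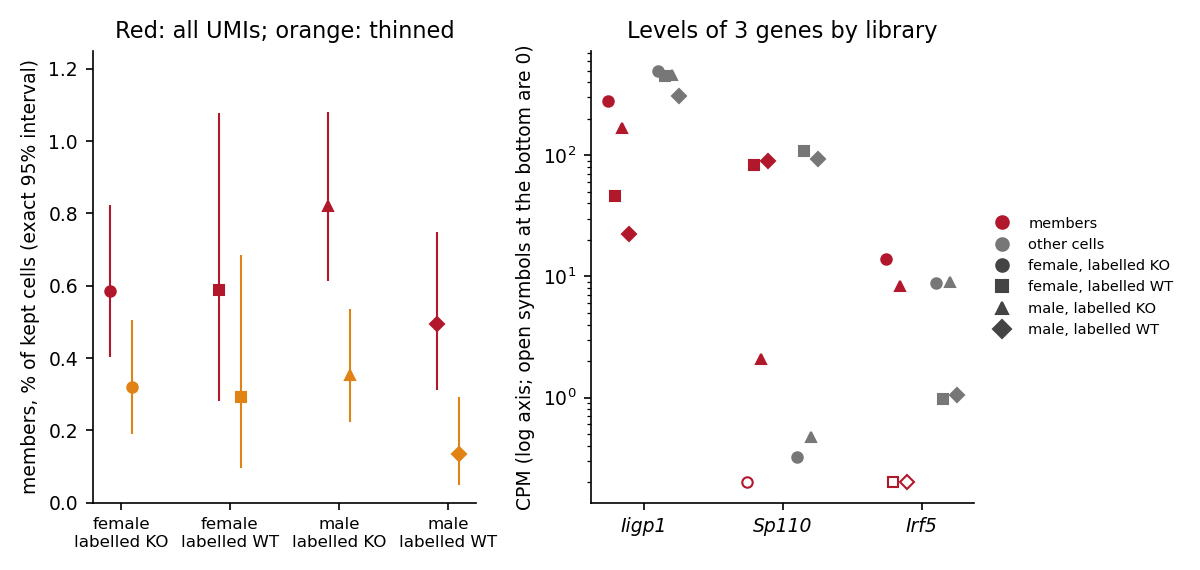
Left, the percentage of kept cells that were selected in each library with exact 95% intervals, before and after thinning to 2000 UMIs; right, the CPM of Iigp1, Sp110 and Irf5 in selected and other cells of each library. Iigp1 in selected cells was 280 and 167 CPM in the libraries labelled knockout against 45.8 and 22.6.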

How the data were processed

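Per the labels' protocols, sorted splenic CD4 T cells were stimulated and profiled with 10x 3′ v3.1 chemistry. The values deposited by the authors are raw UMI counts of each gene in each barcode, cell-free barcodes included; Cell Ranger 6.0.2 and mm10 are named in the submitters' processing notes, and the file headers name Cell Ranger 4. Strand use in counting is not given in the sources used here. Of 32285 gene identifiers 99.8% were found in GENCODE M21 on GRCm38, the source of coordinates. Count columns left unmapped numbered 0.

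Members and gene lists were chosen with earlier results of these data known. Raw counts were summed per library and class, selected, Foxp3+ and other cells, into 12 sums. These were tested with edgeR 4.0.16 in R 4.3.3 (filterByExpr, TMM, quasi-likelihood F-test, library as block, Benjamini-Hochberg over all genes, adjusted p under 0.05), with CPM on the TMM scale. The 6 rule genes stayed in library sizes and left the tests. Label comparisons used the 4 sums of selected cells with sex as a term. Shares used exact tests over libraries (scipy 1.17.1) and exact 95% intervals, which cover counting error only. Named genes were the 20 highest and 10 lowest by fold among called genes with a mean of at least 20 CPM in 1 class, 8 each way against Foxp3+ cells, and up to 5 each way for the labels. They also had the same direction in all 4 libraries, or in both sexes for the labels, with the gene classes left out that are given above. Doublets were kept; 2, 0, 5 and 0 selected cells were marked by Scrublet and left out in an alternative. Alternatives were DESeq2 1.42.0, no filter, thinning to 2000 UMIs, depth-matched, responding or purer comparison cells, other thresholds, no library block and leaving out each library. The scripts were tested on simulated data. Some genes are counted but not reported here.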

Additional observations from a re-analysis of the deposited data

Results flagged for a closer look

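Of 46 groups of 4 libraries examined among the values of named genes in selected cells, 10 held 1 library that stood apart from the other 3. Of these, 6 had 0 in 3 libraries and a few UMIs in 1, which always stands apart. Among the 36 groups with values above 0 in at least 2 libraries 4 stood apart, where chance alone flags about 1 in 20 groups. In the female library labelled knockout these were Igfbp7 at 74.6 CPM (others 9.16 to 14.5), Jaml at 9.33, Ccl5 at 14.0 and Gpr83 at 14.0 CPM, the last 3 against 0 in the other libraries and each from 1 cell. In the female library labelled wild type, which holds 10 selected cells, Kif11 stood low at 9.16 CPM (others 59.9 to 63.2). In the male library labelled knockout Ccr4 and Itih5 stood at 2.07 CPM and Pde3b at 14.5 CPM, against 0 in the others. In the male library labelled wild type Fam43a stood at 45.1 CPM (18.3 to 22.7) and Nmrk1 at 67.7 CPM (9.16 to 18.6).

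The effect of the genotype label differed between selected and other cells, by the interaction term of the edgeR fit, for Iigp1, by 2.39 on the log2 scale (adjusted p = 1.01e-04), with 2.70 within selected cells, and for Car2, by 4.92 (adjusted p = 0.0207), with 4.17 within selected cells. The Car2 value within selected cells did not pass the test alone (edgeR adjusted p = 0.514).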

How the results depend on the processing

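Genes that differed between selected and other cells numbered 814 after thinning and 1306 against depth-matched cells, and 1399 to 2411 when each library was left out, the lowest without the male library labelled knockout; the highest were 3316 against responding other cells and 2847 without the filter. Against Foxp3+ cells the numbers were 451 (168 higher, 283 lower) after thinning, 12 against Foxp3+ cells meeting both thresholds, and 532 to 1109 without each library; Foxp3+ against other cells gave 1760 thinned and 1814 to 3044. Fewer UMIs, cells or libraries enter many of these fits, and the counts moved both below and above those of the main fits (2241, 1027 and 3012). For the genotype labels in selected cells the count was 0 by DESeq2, 7 without the filter, 1 without marked doublets, 0 thinned and 6 to 56 without each library, highest without the male library labelled wild type; the interaction gave 0 by DESeq2, 1 without the filter and 0 to 14. Without a library, the label and interaction fits leave 1 library under a label, and the label fits have no sex term. The counts of these fits are therefore not read as an effect of the library left out. The Penk comparison gave 58 without the filter and 0 to 10. Irf5 in selected against other cells was 0.12 and reversed to -0.035 without the filter, -0.17 against responding other cells and -0.048 with Nrn1 of at least 2 UMIs, with -0.17 (without the female library labelled knockout) to 0.48 when each library was left out; the cause was not tested, and no setting called it. Of 1645 values of named genes under all settings, 1541 kept direction and call, 76 lost the call, 17 gained one and 11 reversed; gains of Egr2 and Egr3 against responding cells follow from their use in choosing those cells. Those that reversed besides Irf5 were Il2ra without the filter (-0.041) and, against responding other cells, Il2ra (-0.27), Tcf7 (0.37) and Cd40lg (-0.21); against depth-matched cells Egr2 (0.47) and Egr3 (0.020); and against Foxp3+ cells meeting both thresholds Tnfrsf4 (0.45). Ifng against other cells gained a call without cells of 50 or more Il2 UMIs (1.73, edgeR adjusted p = 0.0123). That setting, and leaving out cells of 20 or more Top2a UMIs, were chosen after seeing the data; they gave 2366 and 1942 genes against other cells. The labels give no replicate numbers, and the sex term of the label fit pairs the libraries of each sex; without it 2 genes differed. Without the library block the counts were 2326 and 984. Il2 per pooled UMIs in selected cells with Scg2 was 226 in place of 1036 CPM without cells of 50 or more Il2 UMIs, also chosen after seeing the data. Genes below about 20 CPM in selected cells rest on a few UMIs.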
